A study of Mus musculus with 16 samples.

Results

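Smooth muscle contractile proteins were followed here through 10 genes, Acta2, Actg2, Myh11, Mylk, Cnn1, Tagln, Smtn, Lmod1, Des and Synpo2. The genes were taken by name from a table of raw read counts for 29695 genes, all 10 were found, and all 10 were among the 15984 genes that passed the filter on low counts. They were taken by name and function, in knowledge of earlier results from these data. The counts came from poly-A RNA of the suprarenal aorta, the segment of the abdominal aorta above the renal arteries.

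The mice were male and either lacked Vamp8 (Vamp8-/-, here KO) or were C57BL/6 wild type (WT). An osmotic minipump under the skin delivered saline or angiotensin II (AngII), a peptide that constricts arteries and is used to provoke aortic disease in mice, at 1000 ng/kg/min for 5 days. The 4 groups were WT saline, WT AngII, KO saline and KO AngII, each with 4 libraries that the labels call biological replicates. Vessels of every group were flushed and cleared of the tissue around them. The submitters had removed aortae that showed haemorrhage within the wall or overt lesions, so the AngII groups hold vessels free of such damage. The labels used here give no ages, and describe no further allele. Vamp8 encodes a SNARE protein that helps vesicles fuse with other membranes.

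Smooth muscle of the artery wall contracts when myosin pulls on actin filaments. A rise in calcium activates calmodulin and myosin light chain kinase, which phosphorylates the myosin light chain, and a phosphatase reverses this. Calponin, smoothelin, leiomodin and transgelin bind the actin filament, while desmin filaments and dense body proteins such as synaptopodin-2 anchor the filaments in the cell. The transcription factor SRF and its partner myocardin drive most of these genes through a DNA element called the CArG box, and loss of their transcripts is widely used as a sign of smooth muscle that has left its contractile state.

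The CArG box was searched for in the promoters of the members, since these genes varied together across libraries (median Pearson r 0.72 between pairs). RefSeq promoter windows (build GRCm38.p6, 300 bases, 250 before and 50 after the annotated start) were matched by symbol for 7 of the 10 members and not for Actg2, Myh11 and Tagln. The motif has 10 letters, 2 C, then 6 of A or T, then 2 G, and was read on both strands. None of the 7 windows held it exactly, against 1.63% of 32851 windows. With at most 1 letter different it was found in 2 of the 7, against 21.1% of all windows. The 2 windows are shown from 250 bases before the start up to the start, 5′ to 3′ on the strand of the gene, with the matches in capitals. That of Acta2 lies at chr19:34255374-34255623 on the minus strand, and that of Lmod1 at chr1:135324563-135324812 on the plus strand.
Acta2: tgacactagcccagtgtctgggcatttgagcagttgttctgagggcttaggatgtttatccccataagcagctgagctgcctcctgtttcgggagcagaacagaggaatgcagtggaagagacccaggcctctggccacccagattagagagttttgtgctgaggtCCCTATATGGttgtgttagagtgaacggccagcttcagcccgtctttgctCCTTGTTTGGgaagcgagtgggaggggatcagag
Lmod1: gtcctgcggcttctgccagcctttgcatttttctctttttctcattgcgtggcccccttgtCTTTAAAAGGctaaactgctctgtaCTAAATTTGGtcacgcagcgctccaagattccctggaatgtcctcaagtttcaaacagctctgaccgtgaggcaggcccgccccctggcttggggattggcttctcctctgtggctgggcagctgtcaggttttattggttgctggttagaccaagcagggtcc
In Acta2, CCCTATATGG begins 84 bases and CCTTGTTTGG 34 bases before the annotated start, and each differs from the motif in its inner A or T letters. In Lmod1, CTTTAAAAGG begins 189 bases and CTAAATTTGG 164 bases before the start, and each differs in the outer letters. A match describes letters only, and no binding was measured. Sequence outside these windows was not searched.

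Total counts per library ran from 13284804 to 21643548 reads. Levels are in CPM, the reads of a gene relative to its library's total after correction by TMM factors, and in CPM per kilobase (kb) of exon where genes are compared. Vamp8 was read first as a check of the labels. It stood at 51.9 ± 4.64 CPM in WT saline and at 55.8 ± 3.67 CPM in WT AngII (SD, n = 4). The knockouts had means of 34 ± 13.2 CPM in KO saline (log2 fold change -0.61, edgeR adjusted p = 0.147) and 22.9 ± 5.9 CPM in KO AngII (-1.29, 0.00981), of which only the second difference passed. After scaling, the library labelled KO saline replicate 1 held 53.3 CPM, within the WT range and against its label. That level depends on its TMM factor, 0.716, the lowest of all libraries. Before scaling it held 826 of 21643548 reads. By that measure it lay below every WT library (lowest 677 of 13284804, WT saline replicate 1) and above every other KO library. The deposited table also differed by genotype, since the 2725 genes without a symbol had 0 reads in every WT library. How the reads of each genotype were counted is unknown here. A difference in counting and genotype cannot be told apart in any comparison of KO with WT.

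Smooth muscle markers were read to check the labelled tissue. Of 8 smooth muscle markers outside the members, such as Myl9, Tpm2 and Kcnmb1, none was at 0 reads in any group, and their summed level was 2492 to 8167 CPM. Markers of other tissues also differed between libraries. Summed general adipocyte markers (9 genes, among them Adipoq and Plin1) were 2664 to 13068 CPM in WT saline against 3563 to 9435 CPM in WT AngII, against 7591 to 16471 CPM in KO saline and 6069 to 12567 CPM in KO AngII. Mitochondrially encoded genes took 13% ± 3.62 of reads in WT saline and 12.1% ± 2.97 of reads in WT AngII (SD, n = 4). Their share was 29.6% ± 2.43 in KO saline, and the KO AngII share was 15.7% ± 6.03. Neuron and chromaffin markers summed to 5743 CPM in KO AngII replicate 4, and skeletal muscle markers to 874 CPM in KO saline replicate 3.

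The 10 genes together took 2.07% ± 0.819 of all reads in WT saline and 1.48% ± 0.295 of reads in WT AngII (SD, n = 4). In KO saline they took 0.902% ± 0.207, and the KO AngII share was 1.43% ± 0.546. Acta2 alone supplied 50.1% to 64.6% of these reads in each library. In bulk tissue, fewer smooth muscle cells and less RNA per cell cannot be told apart.

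Per kb of exon in WT saline, Acta2 had the highest level, 4670 CPM per kb. Myh11 followed at 625, Cnn1 at 333, Smtn at 158, Lmod1 at 132, Actg2 at 94.5, Mylk at 76.1, Synpo2 at 41.5, Des at 22.1 and Tagln at 18.2 CPM per kb. Tagln, usually an abundant transcript of arterial smooth muscle, therefore stood last. In the GENCODE M21 annotation (GRCm38), 67.9% of its exon bases are shared with other genes on the opposite strand, 62.4% with the antisense gene Gm48529 and 5.43% with Pcsk7. Tagln held 255 to 1171 reads per library, Gm48529 16 to 88, and Pcsk7 317 to 750. The sources used here do not say whether the counting used strand, so the Tagln level is uncertain. Shared exon bases were 16.3% for Smtn, 6.85% for Mylk, 5.86% for Des and 0 for the other 6 members. Of the 50-base stretches of Acta2 transcripts, 7 of 2146 occurred in Actg1 and 0 in Actg2, and 0 of 1592 stretches of Actg2 occurred in another actin gene, so the actins could be told apart by nearly all of their sequence.

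Acta2 (ENSMUSG00000035783, chromosome 19), the main actin of arterial smooth muscle, stood at 12365, 4624, 13064 and 10965 CPM in WT saline replicates 1 to 4. It read 8176, 7447, 11936 and 7714 CPM in WT AngII. It was 5902, 5311, 4870 and 6431 CPM in KO saline, and 7059, 9717, 10158 and 3249 CPM in KO AngII. The KO saline libraries thus lay close together, above WT saline replicate 2 and below all other WT libraries. Actg2 (ENSMUSG00000059430, chromosome 6), the enteric smooth muscle actin, was at 197, 79.3, 166 and 146 CPM in WT saline against 113, 108, 220 and 121 CPM in WT AngII. It held the narrow range of 66.6, 72, 55 and 58.4 CPM in KO saline and spread over 144, 350, 171 and 89.1 CPM in KO AngII. Its KO saline libraries lay below all 12 others. Actg2 sits on the chromosome of Vamp8, 11.1 Mb from it.

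Myh11 (ENSMUSG00000018830, chromosome 16), the heavy chain of smooth muscle myosin, was at 5880, 1993, 5239 and 5889 CPM in WT saline. Its levels were 2446, 2909, 2779 and 1947 CPM in WT AngII. They were 1444, 2254, 2552 and 3373 CPM in KO saline, and 3637, 3759, 3666 and 1507 CPM in KO AngII. WT saline replicates 1, 3 and 4 lay above every library of the other groups, while replicate 2 fell among them. Mylk (ENSMUSG00000022836, chromosome 16), the kinase that activates this myosin, was at 1105, 418, 906 and 1000 CPM in WT saline against 576, 680, 685 and 476 CPM in WT AngII. It was at 430, 535, 606 and 1012 CPM in KO saline and 628, 873, 718 and 434 CPM in KO AngII, so the groups overlapped throughout.

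Cnn1 (ENSMUSG00000001349, chromosome 9) encodes calponin 1, which binds actin and restrains the myosin motor. It was at 1120, 474, 1087 and 967 CPM in WT saline against 792, 734, 1333 and 1018 CPM in WT AngII. In KO saline it was 467, 481, 455 and 478 CPM, the least variable set of all members with a coefficient of variation of 2.53%, and in KO AngII it was 685, 1337, 1260 and 316 CPM. Smtn (ENSMUSG00000020439, chromosome 11) encodes smoothelin, an actin-binding protein of contractile cells. Its levels ran from 340 to 832 CPM in WT saline against 480 to 560 CPM in WT AngII, 408 to 545 CPM in KO saline and 262 to 599 CPM in KO AngII. Lmod1 (ENSMUSG00000048096, chromosome 1), a leiomodin that nucleates actin filaments, ran from 231 to 695 CPM in WT saline against 328 to 382 CPM in WT AngII, 161 to 391 CPM in KO saline and 139 to 439 CPM in KO AngII. Tagln (ENSMUSG00000032085, chromosome 9), encoding transgelin or SM22, ran from 16.6 to 47.4 CPM in WT saline against 25.1 to 61.2 CPM in WT AngII, 30.1 to 38.6 CPM in KO saline and 18.9 to 57.6 CPM in KO AngII. Cnn1 in KO saline lay below every WT AngII library, and for Smtn, Lmod1 and Tagln every group overlapped every other.

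Synpo2 (ENSMUSG00000050315, chromosome 3), an actin-bundling protein of dense bodies, was at 704, 253, 522 and 692 CPM in WT saline against 359, 380, 437 and 349 CPM in WT AngII. It was at 204, 280, 298 and 374 CPM in KO saline and 532, 674, 712 and 173 CPM in KO AngII. Here 3 of the 4 KO AngII libraries lay above all KO saline libraries, and replicate 4 lay below them. Des (ENSMUSG00000026208, chromosome 1), the muscle intermediate filament protein desmin, took another order, with 139, 56.3, 85.1 and 52.1 CPM in WT saline against 39.5, 70.2, 109 and 93.4 CPM in WT AngII. It reached 69.6, 106, 101 and 137 CPM in KO saline and 63, 262, 83.5 and 116 CPM in KO AngII. Desmin is also made by cardiac and skeletal muscle. KO AngII replicate 2, the highest library for Des, had the highest sum of cardiac muscle markers (51.1 CPM), and KO saline replicate 3, the highest for skeletal muscle markers, lay inside the Des range of its group. The part of these markers in the Des level was not tested.

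**Figure D1:**
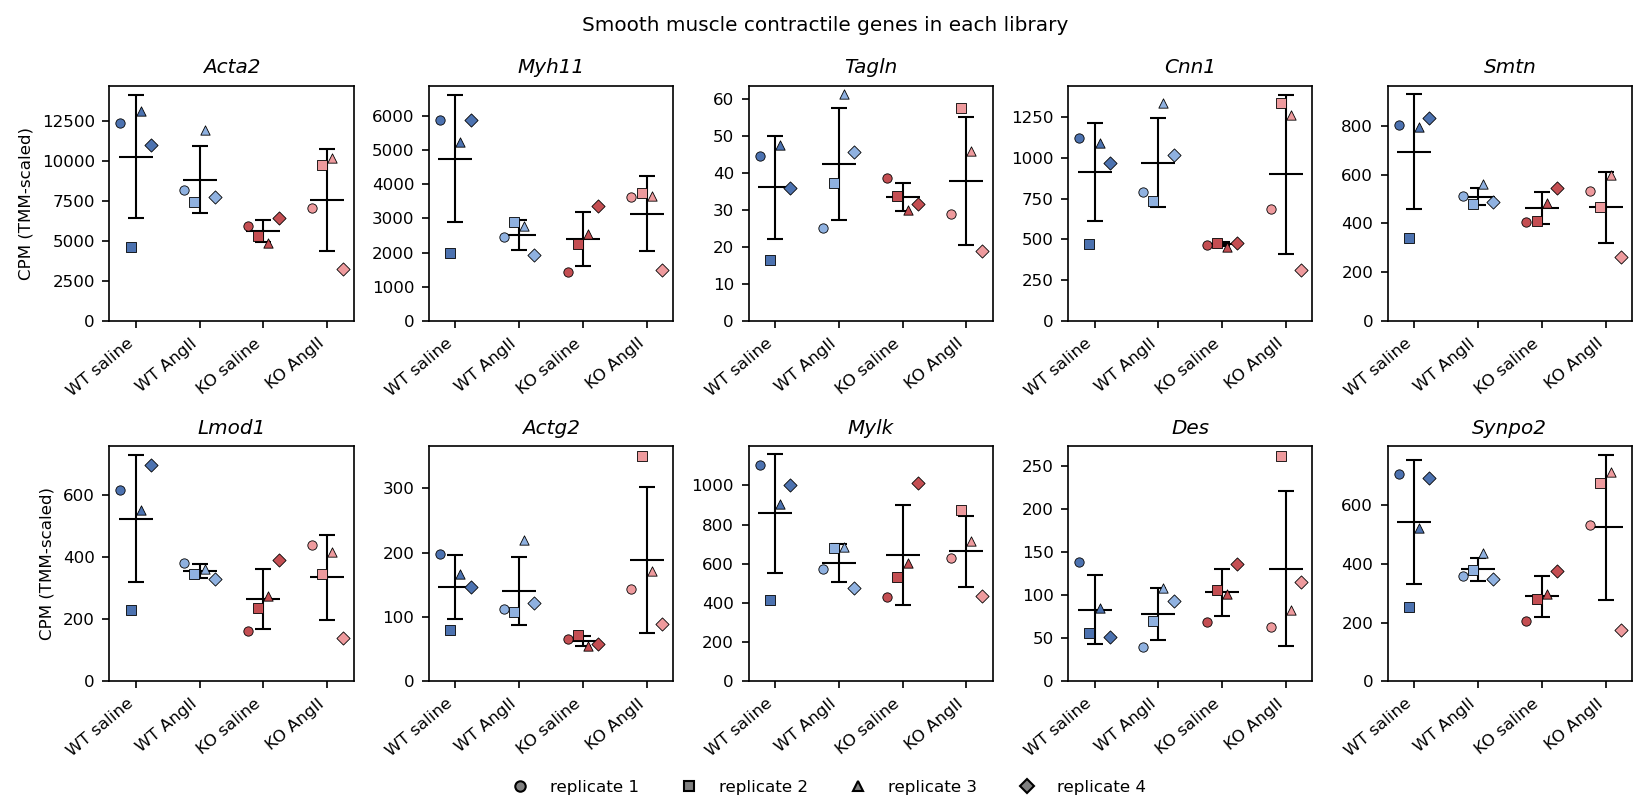
TMM-scaled CPM (vertical axis, linear, from 0) of each contractile gene in the 16 libraries by group, with the mean as a bar and the SD as whiskers (n = 4) and a symbol for each replicate number. WT saline replicate 2 and KO AngII replicate 4 are each the lowest of their group for 9 of the 10 genes, and the library labelled KO saline replicate 1 is the lowest of its group for 6.

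By mean level, KO saline was the lowest group for 8 of the 10 genes, the exceptions being Mylk and Des, for which WT AngII was lowest. WT saline was the highest group for Acta2, Myh11, Smtn, Lmod1, Mylk and Synpo2. Neighbouring groups in this order overlapped for every gene, except that WT AngII and KO saline, the lowest pair for Actg2, did not. Within groups the same libraries were often extreme: WT saline replicate 2 and KO AngII replicate 4 were each lowest for 9 of the 10 genes, and WT AngII replicate 3 was highest for 8. In WT saline, replicate 2 also had the highest sums of general adipocyte markers (13068 CPM), brown adipocyte markers (5489 CPM) and mitochondrially encoded genes. The part of these other signals in the member levels was not tested.

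Infusion of AngII in WT mice left most contractile transcripts without a difference beyond the spread between libraries. Of the 10 members, 0 were called (adjusted p under 0.05 over the 15984 genes) by edgeR's quasi-likelihood test, where 0.444% of all genes were called. At an unadjusted p under 0.05 there was 1 member, against 8.8% of all genes. DESeq2 called 0 (1.75% of all genes) and limma voom with library quality weights 1 (1.59% of all genes). Estimates were below 0 for 8 of the 10 genes (9 without scaling factors, 10 by limma voom) and for 52.2% of all genes, and their median log2 fold change was -0.33, beside -0.01 for all genes tested.

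Myh11 gave the largest estimate in WT, a mean of 4750 ± 1863 CPM under saline and 2520 ± 429 under AngII (SD, n = 4). Its log2 fold change was -0.91 (SE 0.37, 95% interval -1.70 to -0.12) with an unadjusted p = 0.0261 and an adjusted p = 0.451 by edgeR. By limma voom, which gives less weight to more variable libraries, it was -1.07 with an adjusted p = 0.0368. Leaving out WT saline replicate 2, the low library, moved the edgeR estimate to -1.17 with no call. Lmod1 (-0.56), Mylk (-0.51), Synpo2 (-0.51) and Smtn (-0.44) had estimates below 0 with intervals that included 0. Acta2, at -0.22 (SE 0.37), Tagln at 0.23, Cnn1 at 0.09, Actg2 at -0.07 and Des at -0.09 were closer to 0 on the log2 scale. The 95% interval for Acta2 runs from 0.498 to 1.48 times the saline level, so changes within that range were not excluded. Beside these estimates, macrophage markers were above 0 for 10 of 10 genes (4 with an unadjusted p under 0.05, 0 called, median 0.56), and neuron and chromaffin markers had a median of -1.55. Their part in the member estimates was not tested.

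In KO mice all 10 estimates for AngII were above 0, against 51.9% of all genes. Those of Tagln and Cnn1 were above 0 in WT as well. The median log2 fold change of the 10 members in KO was 0.36, beside 0.02 for all genes. None was called by edgeR (0 of 10, where 0.0501% of all genes were called). At an unadjusted p under 0.05 there were 3, Actg2, Cnn1 and Synpo2, against 19.2% of all genes. In the direction of these 3, higher, it was 11.8% of all genes. DESeq2 called 1, Actg2, where it called 4.59% of all genes, and limma voom called the same 3, where it called 3.51%.

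Actg2 averaged 63 ± 7.74 CPM in KO saline and 189 ± 113 CPM in KO AngII (SD, n = 4), and the groups did not overlap, which held in the same direction for 4.25% of all genes. The estimate was 3-fold, a log2 fold change of 1.58 (SE 0.37, 95% interval 0.79 to 2.38), and it missed the threshold in edgeR (unadjusted p = 0.000705, adjusted p = 0.106). DESeq2 gave 1.59 with an adjusted p = 0.00411 and limma voom 1.88 with 0.00995. Without KO AngII replicate 2, which held 350 CPM, the edgeR estimate was 1.10, and without KO AngII replicate 4 it was 1.80. With KO AngII replicate 4 and the library labelled KO saline replicate 1 both left out it was 1.85, with an edgeR adjusted p = 0.101. Cnn1 had a log2 fold change of 0.94 (SE 0.38, adjusted p = 0.21 by edgeR) and Synpo2 of 0.85 (SE 0.37, adjusted p = 0.237). In both genes KO AngII replicate 4 lay below every KO saline library and the other 3 lay above them. Acta2 was estimated at 0.42, Myh11 at 0.39, Des at 0.34, Lmod1 at 0.33, Tagln at 0.17, Mylk at 0.04 and Smtn at 0.01, all with intervals that included 0. Mitochondrially encoded genes moved beside these estimates, with 12 of 13 lower in KO AngII at an unadjusted p under 0.05 (median log2 fold change -1.34, 0 called). Neuron and chromaffin markers had estimates above 0 for 11 of 11 genes (9 with an unadjusted p under 0.05, 0 called, median 4.33), with summed levels of 59.6 to 245 CPM in KO saline and 45.1 to 5743 CPM in KO AngII, the top value in replicate 4. Skeletal muscle markers were below 0 for 11 of 11 (8 with an unadjusted p under 0.05, 0 called, median -3.16), with sums of 24 to 874 CPM in KO saline, the top value in replicate 3, and 28.9 to 42.8 CPM in KO AngII. Brown adipocyte markers were below 0 for 7 of 8 (median -1.14) and general adipocyte markers for 8 of 9 (median -0.37), with 0 called in either list. The median of the members was 0.59 without KO AngII replicate 4 and 0.35 without KO saline replicate 3. The part of the other marker lists in the member estimates was not tested.

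**Figure D2:**
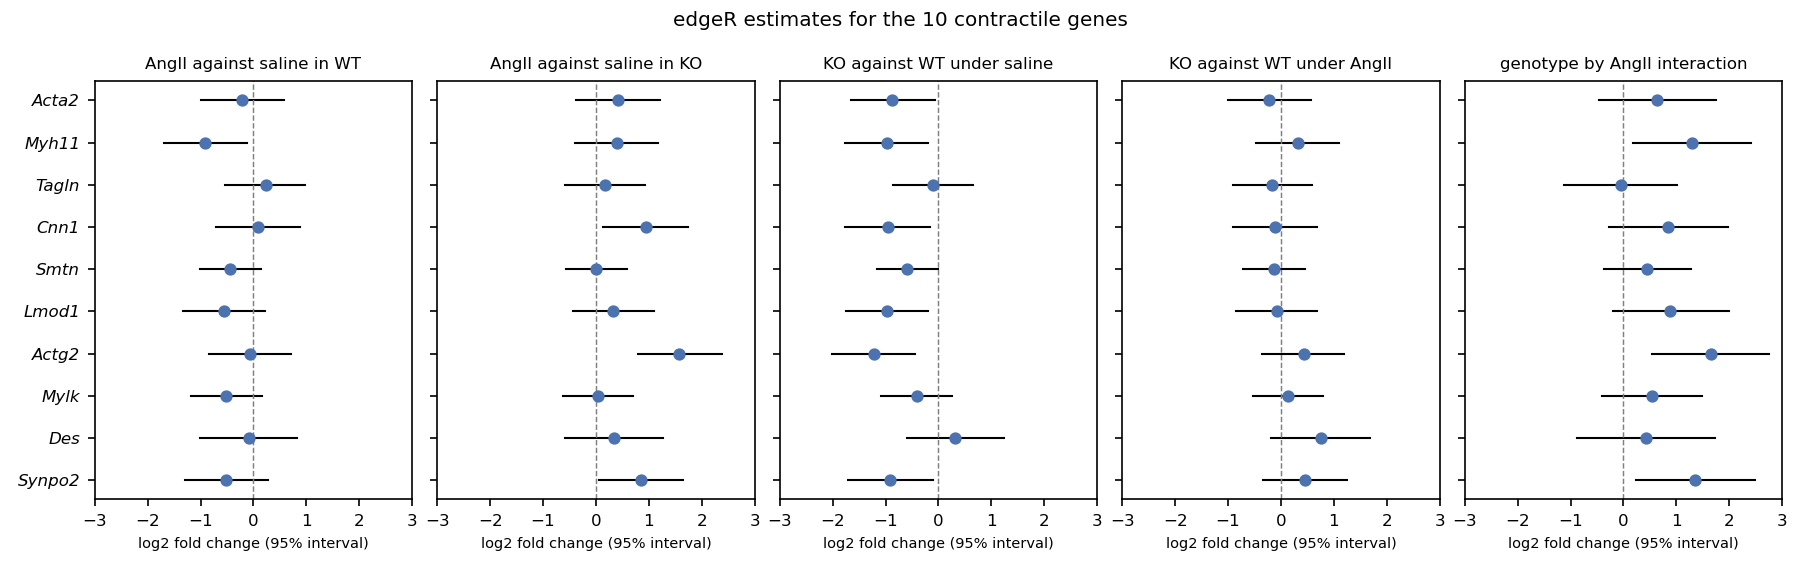
Log2 fold changes from edgeR (points) with 95% intervals (lines) for the contractile genes in 4 group comparisons and the interaction, 0 marked by a dashed line. Intervals under saline lie below 0 for 7 genes in KO against WT, while for AngII in KO those of Actg2, Cnn1 and Synpo2 lie above 0.

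Under saline, contractile transcripts had lower estimates in KO than in WT. This was the comparison with the largest median, a log2 fold change of -0.89 beside 0.05 for all genes, with 9 of 10 estimates below 0 (45.6% of all genes) and Des the exception. Still, 0 of the 10 were called by edgeR, where 3.01% of all genes were called in either direction and 1.78% as lower. At an unadjusted p under 0.05 there were 7, all lower, against 21.8% of all genes in either direction and 11.7% lower. DESeq2 called 1, where it called 8.52% of all genes, and limma voom called 7, where it called 20% of all genes.

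Actg2 had the lowest estimate, from 147 ± 49.9 CPM in WT saline to 63 ± 7.74 in KO saline (SD, n = 4). Its log2 fold change was -1.22 (SE 0.37, 95% interval -2.01 to -0.44, edgeR adjusted p = 0.0819), and the groups did not overlap, as in 5.94% of all genes in that direction. DESeq2 gave -1.23 with an adjusted p = 0.0198. For Myh11 the estimate was -0.98 (edgeR adjusted p = 0.152), for Lmod1 -0.97 (0.15), for Cnn1 -0.96 (0.165), for Synpo2 -0.91 (0.181), for Acta2 -0.87 (0.198) and for Smtn -0.59 (0.226). In each of these 6 genes WT saline replicate 2 lay within the KO saline range or below it, and the other WT saline libraries lay above it. Mylk was estimated at -0.41, Tagln at -0.11 and Des at 0.32, with intervals that included 0.

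Among the fits with 1 library left out, the count in this comparison moved most without WT saline replicate 2. Without it edgeR called 5 members lower, Actg2 (-1.43, adjusted p = 0.0266), Myh11 (-1.24, 0.0298), Smtn (-0.81, 0.0331), Lmod1 (-1.22, 0.0334) and Acta2 (-1.11, 0.047). All genes called also rose without it, from 481 to 1744, of which 1008 were lower (6.16% of the genes tested). KO AngII replicate 2 and KO AngII replicate 4 are in neither group compared, but they enter the filter, the scaling and the estimate of the spread. Without the first or the second of them, Actg2 alone was called (edgeR adjusted p = 0.0496 and 0.0405, with 1.14% and 3.41% of all genes called lower). With library totals and no scaling factors, 7 members were called, but then the median of all genes also moved from 0.05 to -0.28, and that of the members from -0.89 to -1.23. All genes then gave 168 calls higher and 2201 lower (13.8%), in place of 197 and 284. Leaving the mitochondrially encoded genes out of the counts before scaling gave 0 calls. Without the library labelled KO saline replicate 1, 0 members were called. Of all genes 197 were then called, and 163, 191 and 201 without KO saline replicates 2, 3 and 4.

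Other signals moved with this comparison. Mitochondrially encoded genes were higher in KO saline (6 of 13 called, median log2 fold change 1.64). All 9 general adipocyte markers had estimates above 0 (0 called, median 0.82), as did 11 of 12 endothelial markers (0 called, median 0.58) and 6 of 8 brown adipocyte markers (0 called, median 0.99). Skeletal muscle markers were above 0 for 11 of 11 genes (10 with an unadjusted p under 0.05, 0 called, median 3.87), with sums of 17.4 to 37.5 CPM in WT saline and 24 to 874 CPM in KO saline. Neuron and chromaffin markers were above 0 for 10 of 11 (0 called, median 2.54), with sums of 27.1 to 91.5 CPM in WT saline and 59.6 to 245 CPM in KO saline. Of the 5 pericyte markers 3 had estimates below 0, 1 of them called (median -0.11). The other 2 were above 0, each with an unadjusted p under 0.05. The sums of the 5 did not overlap, at 869 to 2051 CPM in WT saline and 535 to 770 CPM in KO saline. Without KO saline replicate 3, the library with the most skeletal muscle signal, the median of the members was -0.86. The fibroblast markers had a median of -0.06 and the smooth muscle markers outside the members of -0.54. As a share of the reads left after removal of the mitochondrially encoded ones, the members took 2.36% ± 0.897 in WT saline and 1.28% ± 0.288 in KO saline (SD, n = 4). The part of these other signals in the member estimates was not tested.

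**Figure D3:**
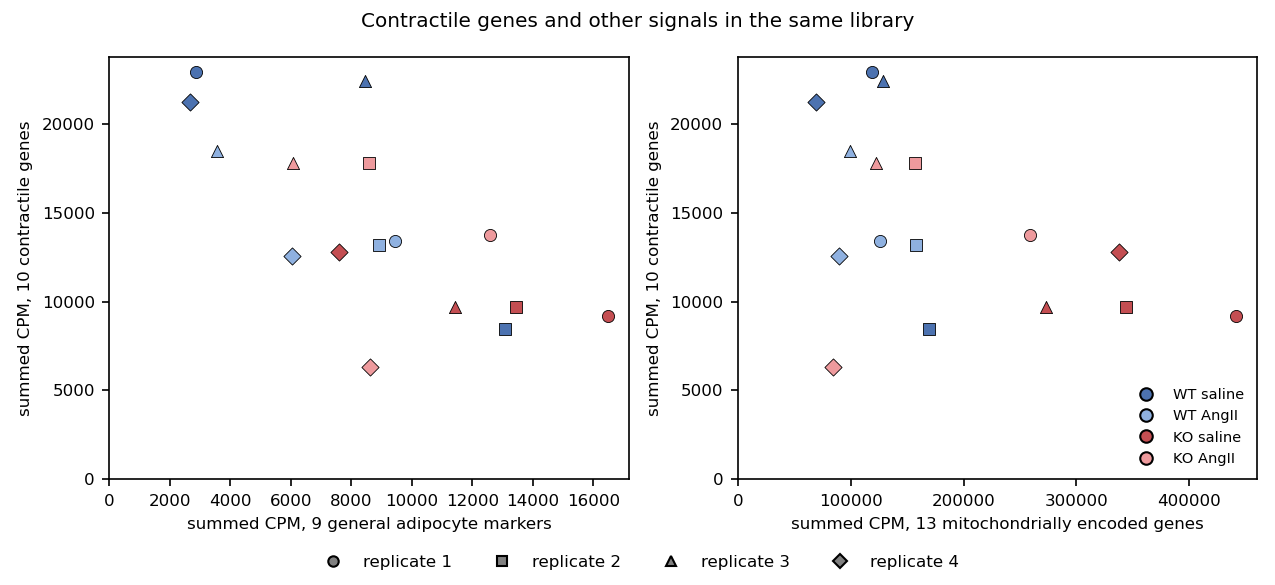
Summed TMM-scaled CPM of the 10 contractile genes (vertical axis) against the summed CPM of 9 general adipocyte markers (left) and of 13 mitochondrially encoded genes (right), a point per library, coloured by group. WT saline replicate 2 lies low on the vertical axis (8484 CPM) and far right on the adipocyte axis (13068 CPM), and the KO saline libraries lie to the right on the mitochondrial axis.

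Across the 16 libraries the mean log2 CPM of the members correlated at Pearson r -0.62 with general adipocyte markers, -0.52 with brown adipocyte markers, -0.39 with the mitochondrial share of reads and 0.41 with the TMM factor. With the smooth muscle markers outside the members r was 0.96. These describe the libraries only, since the values of a library share its depth and its scaling.

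Under AngII the estimates for KO against WT lay on both sides of 0. The median log2 fold change of KO against WT was 0.03, beside 0.04 for all genes, with 5 of 10 estimates below 0 (45.1% of all genes). By edgeR 0 members were called and 0 reached an unadjusted p under 0.05, where 2.03% and 17.9% of all genes did. DESeq2 and limma voom called 0 (7.7% and 3.63% of all genes). Des had the highest estimate, 0.75 (95% interval -0.18 to 1.68, adjusted p = 0.41), and Acta2 and Tagln had the lowest, -0.22 (95% interval -1.01 to 0.56) and -0.16. Without KO AngII replicate 4 and the library labelled KO saline replicate 1, the estimates of Acta2, Tagln, Cnn1, Smtn and Lmod1 turned to 0.03, 0.06, 0.18, 0.07 and 0.18. The interval of Acta2 includes its estimate under saline, -0.87, so KO and WT were not shown to be alike for it. The intervals of Myh11 (from -0.47 up), Actg2 (from -0.35), Synpo2 (from -0.34), Lmod1 (from -0.85) and Cnn1 (from -0.90) do not include theirs. Those of Smtn, Tagln, Mylk and Des do. The interaction tests the difference between the saline and AngII estimates. Beside these estimates, neuron and chromaffin markers were above 0 for 11 of 11 genes (2 called, median 8.70), with sums of 53.4 to 99.4 CPM in WT AngII and 45.1 to 5743 CPM in KO AngII. Macrophage markers were below 0 for 10 of 10 (9 with an unadjusted p under 0.05, 0 called, median -0.93). Their part in the member estimates was not tested.

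The interaction, which asks whether the AngII estimate differed between genotypes, was above 0 for 9 of the 10 genes (50.5% of all genes), with a median of 0.74 beside 0.01 for all genes. By edgeR 0 were called (0.0188% of all genes) and 3 had an unadjusted p under 0.05 (11.2% of all genes). DESeq2 called 0 (0.651% of all genes) and limma voom the 3 genes Myh11, Synpo2 and Actg2 (1.08% of all genes). Actg2 stood at 1.65 (SE 0.52, 95% interval 0.54 to 2.75, edgeR adjusted p = 0.388), Synpo2 at 1.36 (0.42) and Myh11 at 1.30 (0.422). The estimate for Tagln, -0.05, changed sign without scaling factors (0.31) and by limma voom (0.67). So a difference in the response between genotypes was not established by the main test. AngII in KO, KO against WT under saline and the interaction all contain the KO saline libraries, so these estimates are not independent of each other. Averaged over genotypes, AngII gave a median of 0.11 beside 0.00 for all genes, with 0 members called by edgeR, DESeq2 and limma voom, which called 1.04%, 4.17% and 3.43% of all genes. Only Actg2 had an unadjusted p under 0.05 there (15.1% of all genes), with a log2 fold change of 0.76 and an adjusted p = 0.188.

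Ratios of reads within a library do not depend on scaling. Actg2 reads were 1.59%, 1.71%, 1.27% and 1.33% of Acta2 reads in WT saline and 1.39%, 1.45%, 1.84% and 1.56% in WT AngII. They were 1.13%, 1.36%, 1.13% and 0.908% in KO saline and 2.04%, 3.6%, 1.69% and 2.74% in KO AngII. The KO AngII libraries thus all lay above the KO saline libraries, a log2 difference of 1.11. The exact two-sided permutation p was 0.0286, the smallest that 4 against 4 can give, and 0.171 after adjustment over 12 ratio tests, so it did not pass. The higher ratio was seen in KO AngII replicate 4 as well (2.74%). There Acta2, at 3249 CPM, lay below every KO saline library, and Actg2, at 89.1 CPM, lay above every KO saline library.

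Cnn1 reads were 8.4% of Acta2 reads in KO saline and 11.3% in KO AngII by geometric mean, with no overlap (log2 difference 0.42, exact permutation p = 0.0286, adjusted 0.171). Des reads were 0.807% of Acta2 reads in WT saline and 1.8% in KO saline by geometric mean (log2 difference 1.16, exact permutation p = 0.0571, adjusted 0.171), with groups that overlapped. Myh11 reads relative to Acta2, chosen after the values were seen and not tested, were 47.6%, 43.1%, 40.1% and 53.7% in WT saline and 29.9%, 39.1%, 23.3% and 25.2% in WT AngII. They were 24.5%, 42.4%, 52.4% and 52.4% in KO saline and 51.5%, 38.7%, 36.1% and 46.4% in KO AngII. The WT saline and WT AngII libraries did not overlap in this ratio, and here WT saline replicate 2 lay within its group.

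**Figure D4:**
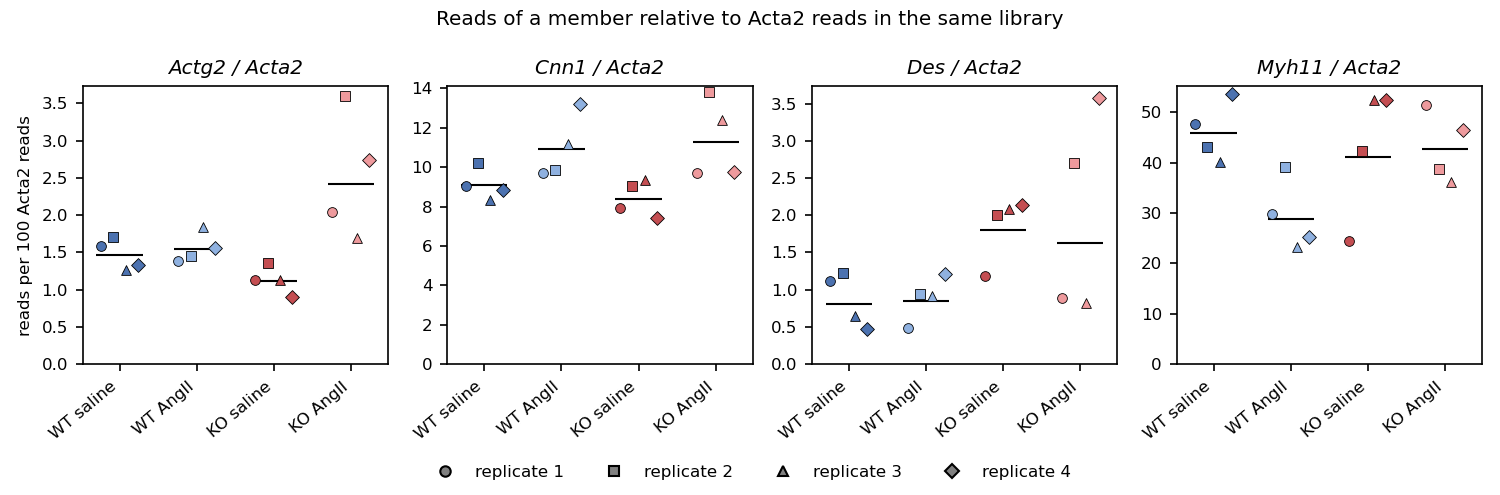
Reads of Actg2, Cnn1, Des and Myh11 per 100 Acta2 reads (vertical axis, linear, from 0) in each library by group, with the geometric mean of the group as a bar and a symbol for each replicate number. The Actg2 ratio is 1.69 or more in every KO AngII library and 1.36 or less in every KO saline library.

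The members varied together across the 16 libraries. Over the 45 pairs of genes the median Pearson r of log2 CPM was 0.72, from -0.07 to 0.94, and 16 pairs exceeded 0.8. With the group means removed the median was 0.78, so the shared variation was between libraries of the same group as well as between groups. Lmod1 with Smtn (0.94), Myh11 with Lmod1 (0.93) and Acta2 with Cnn1 (0.93) were the tightest pairs. Des stood apart, with a median r of 0.16 with the other 9 genes. Actg2 and Cnn1, the genes with the largest estimates in KO mice, had r 0.87. These values share the libraries' depth and scaling and carry no test.

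**Figure D5:**
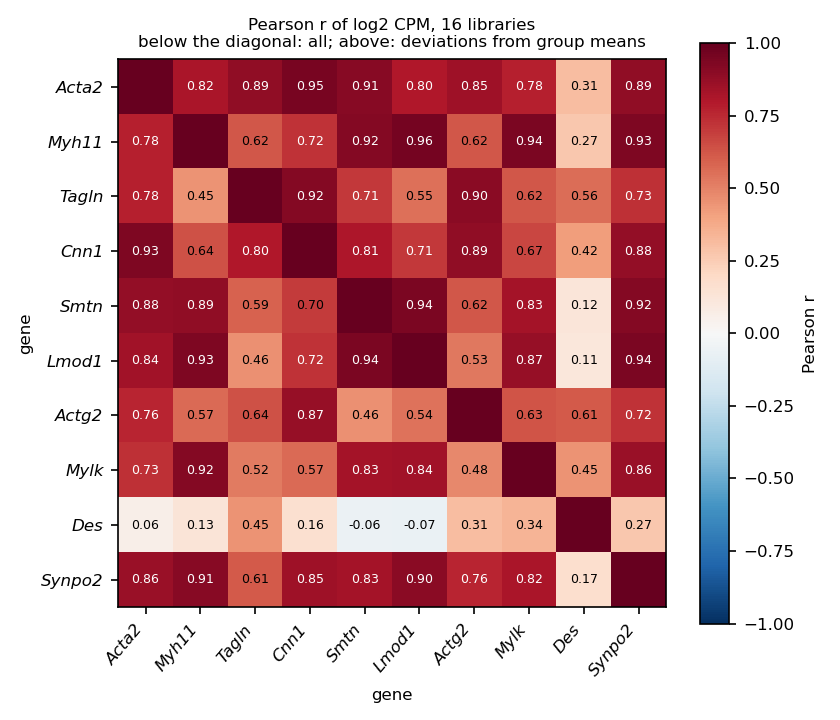
Pearson r of log2 CPM between the contractile genes over 16 libraries, below the diagonal for all values and above it for deviations from the group means, on a colour scale from -1 to 1. The row and column of Des are pale (median r 0.16), and most other pairs are dark.

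The 8 genes outside the set whose log2 CPM followed the mean of the members most closely over the 16 libraries were Tpm1 (r 0.98), Csrp1 (0.97), Actn1 (0.96), Chmp4c (0.96), Cald1 (0.96), Msrb3 (0.96), Pdlim7 (0.95) and Pdlim3 (0.95). Tpm1 encodes a tropomyosin and Cald1 caldesmon, both of the actin filament, and Actn1 encodes an alpha-actinin that crosslinks actin. Synpo2 was the member closest to the mean of the set (r 0.95, with its own values in that mean) and Des the farthest (0.32).

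Other genes of the contractile apparatus were read from lists chosen by function. Among 15 other filament proteins, 1 was called lower (1.78% of all genes) in KO against WT under saline: Myh10, a nonmuscle myosin heavy chain, at 589 ± 258 CPM in WT saline and 160 ± 13 in KO saline (SD, n = 4, log2 fold change -1.88, SE 0.34, edgeR adjusted p = 0.011). The list had 12 estimates below 0 and a median of -0.45. Among 12 regulators of light chain phosphorylation 0 were called, with 11 estimates below 0 and a median of -0.28. Ppp1r12b, a targeting subunit of the myosin phosphatase, was at -1.04 (edgeR adjusted p = 0.132).

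Among 23 dense body, adhesion and intermediate filament proteins 0 were called in KO against WT under saline, but 20 had estimates below 0, 16 of them with an unadjusted p under 0.05 (11.7% of all genes), and the median was -0.76. Svil, the actin-membrane linker supervillin, was at -1.02 (edgeR adjusted p = 0.0611) and Tln1, the integrin-binding protein talin, at -0.83 (0.0798). Among 10 genes of SRF and its cofactors 0 were called and the median was -0.12. The 2 with the smallest p were Myocd, encoding myocardin, from 60.7 ± 15.9 to 18.6 ± 7.99 CPM (SD, n = 4, log2 fold change -1.71, edgeR adjusted p = 0.0577), and Srf, from 82.9 ± 12.1 to 45.5 ± 12.1 CPM (-0.86, 0.0664).

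For AngII in KO mice none of these 4 lists held a called gene by edgeR. The dense body list had estimates above 0 for 23 of 23 genes, 3 with an unadjusted p under 0.05 (11.8% of all genes), a share near that of all genes, and a median of 0.51, with Vcl, encoding vinculin, at 1.13 (edgeR adjusted p = 0.194). The other filament proteins had a median of 0.15, with the tropomyosin Tpm3 at 0.84 (0.136) and the calponin Cnn3 at 0.65 (0.143). The list of SRF and its cofactors had 4 estimates above 0 and 6 below, with a median of -0.05. Within it Myocd was at 1.23 (0.186) and Srf at 0.53 (0.255). In WT mice none of the lists held a called gene for AngII either. There the largest estimates named were for Tpm4, a tropomyosin of many cell types, at 1.07 (edgeR adjusted p = 0.0898), and Fhl2, a LIM protein that binds SRF, at 1.08 (0.302). The lists of these 2 genes did not lean the same way. Of the other filament proteins, 8 of 15 estimates were below 0 (median -0.02), and of SRF and its cofactors 7 of 10 (median -0.20). Of all genes 52.2% were below 0 (median -0.01), so the first list was near all genes. Pgm5, an adhesion protein of smooth muscle, was at -0.70 (0.515), and Myh10 also at -0.70 (0.578).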

How the data were processed

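RNA from 16 suprarenal aortae was sequenced, and the deposited values are raw counts of reads for each gene, not normalized by the authors. The submitters' processing notes name HISAT2 (2.0.5), the counter featureCounts (1.5.0-p3), DESeq2 (1.20.0) and the build GRCm39 (mm39). Annotation release, strand setting and handling of reads with several matches: not given in the sources used here. Group and replicate number came from sample titles.

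edgeR's default filter kept 15984 genes and removed 13711, leaving at least 99.47% of the reads of each library. Counts were scaled by TMM, and the quasi-likelihood F test of edgeR 4.0.16 (R 4.3.3) was fitted to all 16 libraries at once, a mean for each group (12 residual degrees of freedom, biological coefficient of variation 35.3%). Called means an adjusted p under 0.05 (Benjamini-Hochberg, over all tested genes). Tests were two-sided. The p-values measure the spread between these libraries. Correlations used log2 CPM with a prior count of 2. DESeq2 1.42.0, limma voom (3.58.1), other scalings and filters, a fit without 2 libraries and each library left out in turn were alternatives. The test scripts were tested on simulated data.

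Named genes were the 10 members, up to 4 called genes of each of 4 other smooth muscle lists in a comparison or else the 2 with the smallest p, the 8 genes most correlated with the mean of the members, and Vamp8. A gene that this rule also named is not reported here. Marker lists were read by counts and sums. The members and lists were chosen with earlier results of these data known. Exon overlaps and exon lengths came from GENCODE M21 on GRCm38. The overlaps served for annotation only. The length of a gene was that of all exons of its transcripts merged, and the CPM per kb values and their order depend on it. Promoter windows came from RefSeq on GRCm38.p6. No read count or test depends on any of these.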

Additional observations from a re-analysis of the deposited data

Results flagged for a closer look

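Of the 40 sets of a gene and a group, 5 held a library whose gap to its nearest neighbour, relative to the range of the group, exceeded Dixon's 95% value of 0.829. Chance alone gives about 1 in 20 such sets, and the sets are not independent because the genes vary together. Acta2 stood at 11936 CPM and Actg2 at 220 CPM in WT AngII replicate 3, each above the rest of its group. In WT saline replicate 2, Myh11 was at 1993 CPM and Smtn at 340 CPM, each below the rest. Myh11 was at 1507 CPM in KO AngII replicate 4, below the rest.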

How the results depend on the processing

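The medians of the members moved by less than 0.48 log2 units, the spread of the member mean within groups, under all alternatives. This margin is wider than some of the medians themselves, so it does not show that they kept their size or sign. For KO against WT under AngII the median was 0.03 by edgeR and 0.34 by limma voom. Leaving out each library gave medians of -0.56 to -0.21 for AngII in WT, 0.24 to 0.59 for AngII in KO, -1.13 to -0.76 for KO against WT under saline, -0.08 to 0.21 under AngII, 0.54 to 0.99 for the interaction and -0.05 to 0.20 for the averaged AngII effect. The number of members called went from 0 to 1 and 1 by DESeq2 in AngII in KO and KO against WT under saline. By limma voom it went to 1 for AngII in WT, 3 for AngII in KO, 7 for KO against WT under saline and 3 for the interaction, and without scaling factors to 7 under saline. Leaving out each library gave 0 to 5 under saline and 0 in the other comparisons. The cause was not tested. Single estimates near 0 changed sign. For AngII in WT these were Tagln (-0.17) and Cnn1 (-0.20) by limma voom and Cnn1 (-0.00) without scaling factors. For KO against WT under AngII, limma voom gave Acta2 0.05, Tagln 0.35 and Cnn1 0.28, and leaving out KO AngII replicate 4 with the library labelled KO saline replicate 1 gave Acta2 0.03, Tagln 0.06, Cnn1 0.18, Smtn 0.07 and Lmod1 0.18. The Tagln interaction became 0.67 by limma voom, 0.31 without scaling factors and 0.25 without both libraries. The averaged AngII effect on Des became -0.07 by limma voom. Without both libraries, Tagln for AngII in KO (0.47) and Mylk for KO against WT under AngII (0.29) kept their sign.

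The replicate number as a block gave 0 members called and medians of -0.31, 0.36, -0.85, 0.03, 0.69 and 0.06 in the 6 comparisons in the order above, and turned Smtn for AngII in KO to -0.00. The numbers did not pair the libraries: 6 of 16 correlated best with their own number, and same-numbered pairs had r from -0.423 to 0.442.

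With each library left out in turn, these log2 estimates changed sign in at least 1 fit. For AngII in WT they were Tagln -0.01 to 0.41, Cnn1 -0.13 to 0.21, Actg2 -0.37 to 0.12, Des -0.29 to 0.28, Actg2 to Acta2 reads -0.00 to 0.16 and Des to Acta2 reads -0.19 to 0.33. For AngII in KO they were Tagln -0.10 to 0.38, Smtn -0.14 to 0.20, Mylk -0.12 to 0.34, Des -0.24 to 0.57 and Des to Acta2 reads -0.52 to 0.19. For KO against WT under saline they were Tagln -0.35 to 0.06. For KO against WT under AngII they were Acta2 -0.42 to 0.00, Tagln -0.44 to 0.07, Cnn1 -0.36 to 0.15, Smtn -0.29 to 0.05, Lmod1 -0.24 to 0.16, Actg2 -0.06 to 0.73, Mylk -0.03 to 0.27 and Cnn1 to Acta2 reads -0.05 to 0.14. For the interaction they were Tagln -0.33 to 0.19 and Des -0.15 to 0.66. For the averaged AngII effect they were Acta2 -0.02 to 0.23, Lmod1 -0.24 to 0.02 and Des -0.17 to 0.30.

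Counts over all genes moved more. KO against WT under saline gave 481 genes by edgeR, 1362 by DESeq2, 3197 by limma voom, 2369 without scaling factors and 203 with only the groups compared. AngII in WT gave 71, 280, 254, 20 and 57, and AngII in KO 8, 734, 561, 5 and 4, in the same order. KO against WT under AngII gave 324, 1230, 580, 169 and 102. Under the first 3 of these settings the interaction gave 3, 104 and 173 genes and the averaged effect 166, 666 and 549. Leaving out each library gave 105 to 1744 genes for KO against WT under saline and 3 to 115 for AngII in WT. The interaction and the averaged effect use all groups, so no separate fit with only the groups compared was made for them.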
